A study of Ostrinia furnacalis with 30 samples.

Results

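The transcriptomes of embryos and of newly hatched (1st instar) larvae of the Asian corn borer Ostrinia furnacalis, a moth whose caterpillars bore into maize, were compared across all genes. A gene was included when its value was at least 1 in at least 3 of the 6 libraries, which left 11524 of 20852 gene models. Values are FPKM, the number of sequenced fragments per kilobase of gene and per 1000000 fragments of a library size scaled by the authors. Both stages were wild type whole insects reared in the insectary at one temperature, without any treatment, and each had 3 libraries. An embryo library was made from 20 pooled eggs collected less than 12 h after they were laid, and a 1st instar library from 20 pooled larvae. The authors purified messenger RNA with poly-T beads, so levels are those of captured RNA. Whether capture differed between the stages was not tested. The series holds 30 libraries in all, of which 12 are from 4 tissues taken from larvae of the 3rd instar and the others from 6 stages. The eggs of 1 pool could differ in age within the 12 h, and nothing in the sources says that the pools of a stage came from different parents, so the p-values below measure the spread between these pools.

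A newly laid insect egg carries messenger RNAs that the mother's ovary packed into it, and these drive the first nuclear divisions, set up the body axes and mark the future germ cells before the embryo's own genes take over. By hatching, the animal has working muscles, gut, nerves, cuticle and silk glands. Genes for oogenesis and cell division are therefore the classical markers of the early egg, and genes for contraction, digestion and cuticle those of the larva.

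The embryo libraries held 14623389 to 15649804 fragments and the 1st instar libraries 16001116 to 17774377, as recovered from the deposited values. The markers chosen for each stage followed the labels. The summed level of 7 germ plasm and small RNA genes (vasa, nanos, maelstrom and piwi-like genes) was 271 to 394 FPKM in the embryo libraries and 42.5 to 45.3 FPKM in the 1st instar libraries. For 8 troponin and muscle myosin heavy chain genes it was 0.545 to 11.6 FPKM in the embryo libraries and 17296 to 23559 FPKM in the 1st instar libraries, and fibroin light chain, a silk protein, was listed at 0 in the 3 embryo libraries. Among markers of other cells, 15 chorion and vitelline membrane genes of the ovarian follicle summed to 2.86 to 3.65 FPKM in the embryo libraries and 3.26 to 5.75 FPKM in the 1st instar libraries, and 12 of the 15 were at 0 in the 3 embryo libraries. Vitellogenin and arylphorin genes, the fat body markers, summed to 0.00517 to 0.445 FPKM in the embryo libraries and 2.22 to 6.30 FPKM in the 1st instar libraries. In whole animals, fewer cells of a type and less RNA per cell cannot be told apart.

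Libraries of 1 stage were alike, but 1 library of each stage stood apart for more genes than the others. Pearson's r of log2(FPKM + 1) across the tested genes was 0.938 to 0.975 between embryo libraries, 0.951 to 0.986 between 1st instar libraries and 0.337 to 0.418 between the stages. Embryo replicate 1 was lower than the mean of the other embryo libraries by at least 2 on the log2 scale for 101 tested genes. It was higher by as much for 0. Only genes for which those other libraries were within 1 of each other were counted. By the same measure embryo replicate 2 was higher for 30 genes and replicate 3 for 14, and each was lower for 1. The same count for 1st instar replicate 2 was 168 genes higher and 0 lower, against 0 or 1 in each direction for the other 1st instar libraries. Of the 101 genes low in embryo replicate 1, 28 were called higher in the embryo and 21 in the 1st instar, and no list held more than the 3 of basement membrane and integrins.

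The stages differed at more genes than not. Over the 11524 tested genes, every embryo library was above every 1st instar library for 4241 genes and below for 4996. Stages without overlap were thus common among all tested genes. By limma-trend on log2(FPKM + 1), calls required that the p adjusted by Benjamini and Hochberg was under 0.05 and that the log2 fold change (embryo minus 1st instar) was 1 or more in size. On this basis 2843 genes (24.7% of those tested) were higher in the embryo and 3991 (34.6%) in the 1st instar, 59.3% together. The remaining 4690 genes were not called. This balance depended on how the libraries were scaled. The authors' scaling multiplied the library size of the embryo by 2.36 to 2.42 and that of the 1st instar by 0.937 to 1.10, and the median log2 fold change over all tested genes was -0.14. With each library scaled to its total of recovered fragments, the median was 0.94, and 5545 genes (48.1%) were higher in the embryo and 2763 (24.0%) in the 1st instar, 72.1% together. When very abundant genes were left out of that total, the shares were 42.0% and 27.3%, 69.3% together. The split of higher against lower calls thus went from 41.6% to 66.7% higher in the embryo. Since that scaling moves every gene towards the embryo, calls higher in the embryo could hardly be lost, and 2763 of the 3991 genes called higher in the 1st instar kept their call. Fold changes below are on the log2(FPKM + 1) scale of the deposited values, which understates the change of low genes, and where the balance of a list described below turned with the scaling, both counts are given.

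**Figure D1:**
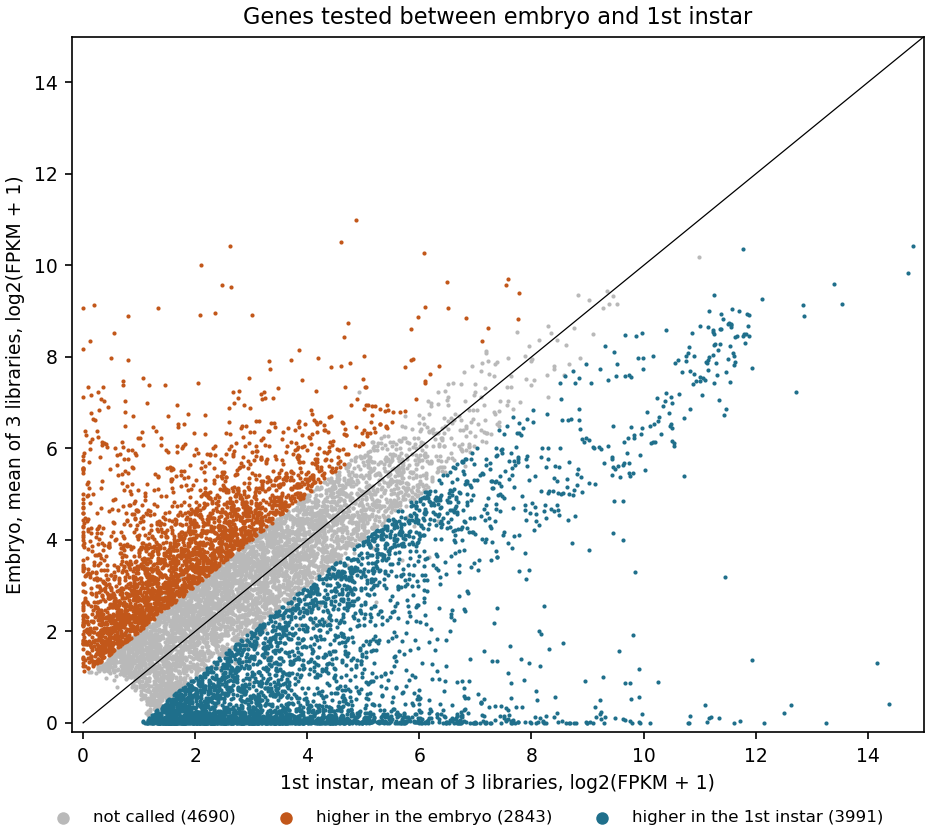
Mean log2(FPKM + 1) of the 3 embryo libraries (vertical axis) against that of the 3 1st instar libraries (horizontal axis); each of the 11524 points is a tested gene, coloured by its call, and the line marks equal values. The 3991 genes higher in the 1st instar lie below the line, some of them along the bottom edge, and the 2843 genes higher in the embryo lie above the line.

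The libraries also differed in how their RNA was spread over genes. The 10 most abundant genes took 5.39 to 6.87% of the fragments of the embryo libraries and 21.3 to 30.4% of those of the 1st instar libraries, and the fewest genes that held 50% of the fragments numbered 682 to 724 in the embryo and 76 to 140 in the 1st instar. Genes of the mitochondrial genome took 0.624 to 1.11% in the embryo and 6.02 to 8.62% in the 1st instar. That share leaves out a gene model added by the authors on another scaffold, whose Swiss-Prot match is a mitochondrial NADH dehydrogenase chain. This model alone took 0.766 to 1.86% in the embryo and 7.33 to 12.6% in the 1st instar. The ranges of the stages did not overlap for any of these measures.

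The gene lists, drawn up from the gene descriptions, separated into those of the early egg and those of the hatched larva. Lists above the background for the embryo under both scalings were the germline and small RNA genes, nuclear pore and transport, DNA replication and cell division, zinc finger proteins, chromatin modification, signalling ligands and their effectors, eggshell and yolk genes and histones. At the other end, muscle, cuticle, respiratory chain, cytosolic ribosomal, digestive, chemosensory and nervous system genes were called higher in the 1st instar at shares above the background under both scalings.

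**Figure D2:**
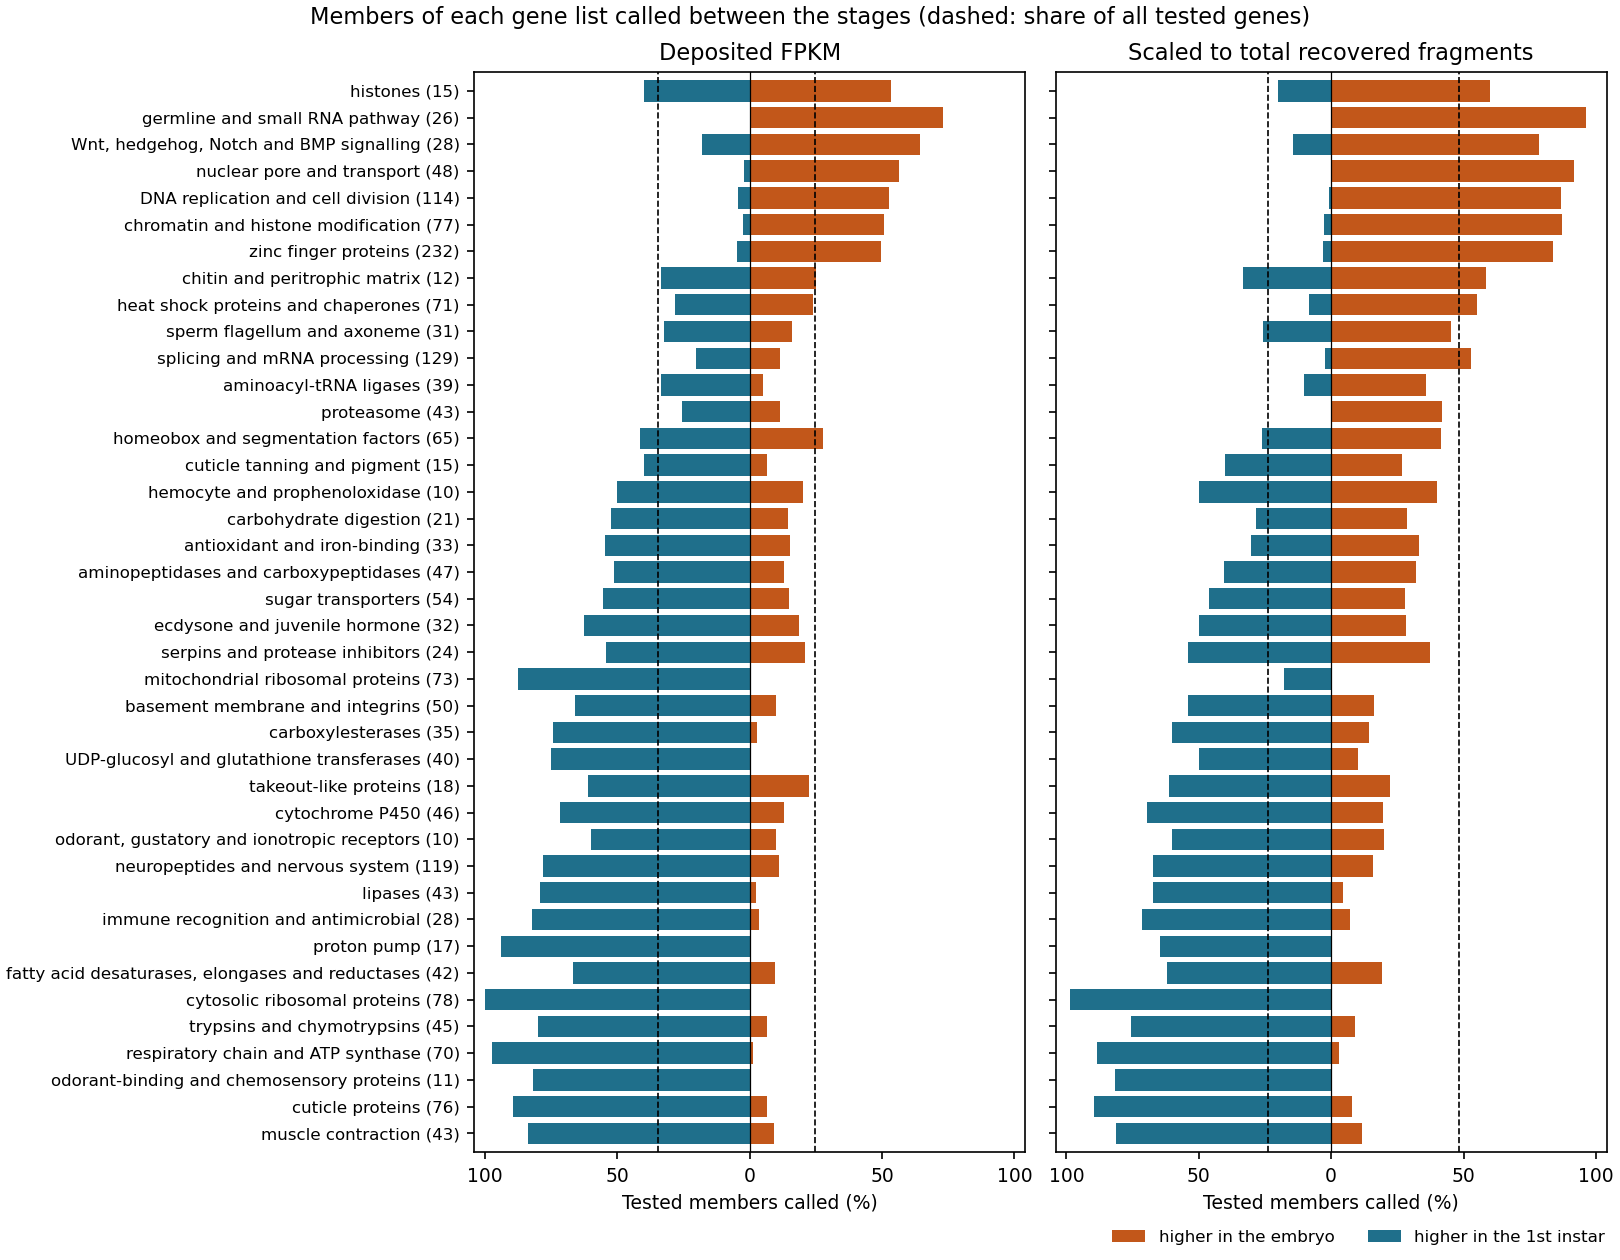
Percentage of the tested members of each gene list (number of tested members in parentheses, lists with at least 10) called higher in the embryo (to the right) or in the 1st instar (to the left), on the deposited FPKM (left) and after scaling to the total of recovered fragments (right). Dashed lines mark the share of all tested genes called in that direction, 24.7% and 34.6% on the left and 48.1% and 24.0% on the right.

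Among called genes of the cell division cycle, most were higher in the embryo. Of 114 tested genes for DNA replication and cell division, 60 were called higher in the embryo and 5 in the 1st instar, while 49 were not called (median log2 fold change 1.14). Together, the list took 1.39 to 1.90% of the fragments of the embryo libraries and 0.155 to 0.178% of those of the 1st instar libraries. Cyclin-B (LOC114349851), which drives entry into mitosis, was 619.8, 424 and 428 FPKM in the embryo libraries and 2.46, 5.91 and 2.16 FPKM in the 1st instar libraries. Every embryo library was far above every 1st instar library (log2 fold change 6.84 ± 0.32 (SE), adjusted p = 2.65e-06). Cyclin-B3 (LOC114358999) averaged 167 ± 33.0 FPKM in the embryo and 1.83 ± 0.706 FPKM in the 1st instar (SD, n = 3), and cyclin-A2-like (LOC114355253) averaged 147 ± 30.3 FPKM in the embryo and 8.02 ± 1.03 FPKM in the 1st instar, with log2 fold changes of 5.91 and 4.03 (adjusted p = 1.49e-06 and 2.07e-06). A mitotic spindle assembly checkpoint protein (LOC114356689) was higher in the embryo as well (log2 fold change 4.71 ± 0.22 (SE), adjusted p = 2.49e-06). The exceptions included a subunit of the anaphase-promoting complex, the ligase that marks cyclins for destruction (LOC114350139, subunit 13-like), at 7.54 ± 0.839 FPKM in the embryo and 38.3 ± 6.16 FPKM in the 1st instar (log2 fold change -2.19 ± 0.17 (SE), adjusted p = 2.20e-05). In 76 of the 114 genes embryo replicate 1 was the highest of the 3 embryo libraries, against 37.7% of all tested genes.

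The germline and small RNA genes that were called were all higher in the embryo. Of 26 tested, 19 were called higher in the embryo and 0 in the 1st instar (median log2 fold change 1.48), and the list took 0.636 to 1.08% of the fragments of the embryo libraries and 0.0766 to 0.0910% of those of the 1st instar libraries. Bicaudal C (LOC114357786), an RNA-binding protein of the oocyte, was 207, 71.6 and 75.1 FPKM in the embryo libraries and 1.89, 1.03 and 3.05 FPKM in the 1st instar libraries (log2 fold change 5.19 ± 0.45 (SE), adjusted p = 4.37e-05). Smaug (LOC114363093), which in Drosophila represses and clears maternal messages, was 149, 51.9 and 36.0 FPKM in the embryo libraries and 2.25, 2.24 and 2.07 FPKM in the 1st instar libraries (log2 fold change 4.38 ± 0.47 (SE), adjusted p = 0.000129). For both, embryo replicate 1 was the highest library and the stages did not overlap. Nanos (LOC114357926), a germ plasm translational repressor, was at 16.1 ± 4.72 FPKM in the embryo and 0.180 ± 0.110 FPKM in the 1st instar (log2 fold change 3.83, adjusted p = 7.85e-06).

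Vasa (LOC114357405), the germline RNA helicase, was 92.6, 41.3 and 32.8 FPKM in the embryo libraries and 16.3, 16.01 and 15.3 FPKM in the 1st instar libraries. It was present in every larval library at 15.3 FPKM or more (log2 fold change 1.60 ± 0.35 (SE), adjusted p = 0.00470). The piwi-interacting RNA pathway silences transposons in the germline, and its members differed in the size of their change. Maelstrom (LOC114357007) averaged 138 ± 32.2 FPKM in the embryo and 5.81 ± 0.701 FPKM in the 1st instar (log2 fold change 4.33). Another gene annotated as maelstrom (LOC114356355) averaged 2.41 ± 0.0999 FPKM in the embryo and 1.04 ± 0.291 FPKM in the 1st instar and was not called on the deposited values (log2 fold change 0.75). The gene models annotated as Ago3, LOC114364926 and LOC114360677, had log2 fold changes of 4.04 and 3.48, while Siwi (LOC114355476), the other piwi protein of moths, was 64.5, 57.6 and 60.8 FPKM in the embryo libraries and 20.4, 19.3 and 20.5 FPKM in the 1st instar libraries (log2 fold change 1.56 ± 0.11 (SE), adjusted p = 1.69e-05). A pair of gene models with 1 name may be copies or pieces of 1 gene, and reads shared between them cannot be assigned with certainty.

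Genes of RNA helicases were abundant in the embryo. The me31b-like helicase (LOC114354422), which in Drosophila keeps messages of the oocyte untranslated, was 565, 403 and 453 FPKM in the embryo libraries and 63.2, 58.3 and 63.5 FPKM in the 1st instar libraries (log2 fold change 2.91 ± 0.15 (SE), adjusted p = 4.39e-06). Helicase p62 (LOC114350063) was 679.6, 706 and 589 FPKM in the embryo libraries and 447, 439.9 and 470.0 FPKM in the 1st instar libraries and was not called on the deposited values (log2 fold change 0.54), but it was with the other scaling (1.79). Of the eggshell and yolk list, 4 of 7 tested genes were called higher in the embryo and 2 in the 1st instar (4 of 9 without embryo replicate 3). The vitellogenin receptors, through which the growing oocyte takes up yolk, were among the former. LOC114364367 was 65.9, 89.8 and 67.4 FPKM in the embryo libraries and 0.640, 1.02 and 1.34 FPKM in the 1st instar libraries (log2 fold change 5.24 ± 0.20 (SE), adjusted p = 1.23e-06). The other receptor gene named, LOC114359799, averaged 31.6 ± 7.64 FPKM in the embryo and 0.134 ± 0.0534 FPKM in the 1st instar. A chorion peroxidase-like gene (LOC114358801) averaged 51.5 ± 11.2 FPKM in the embryo and 0.0739 ± 0.0641 FPKM in the 1st instar, with no overlap of the stages (log2 fold change 5.59).

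**Figure D3:**
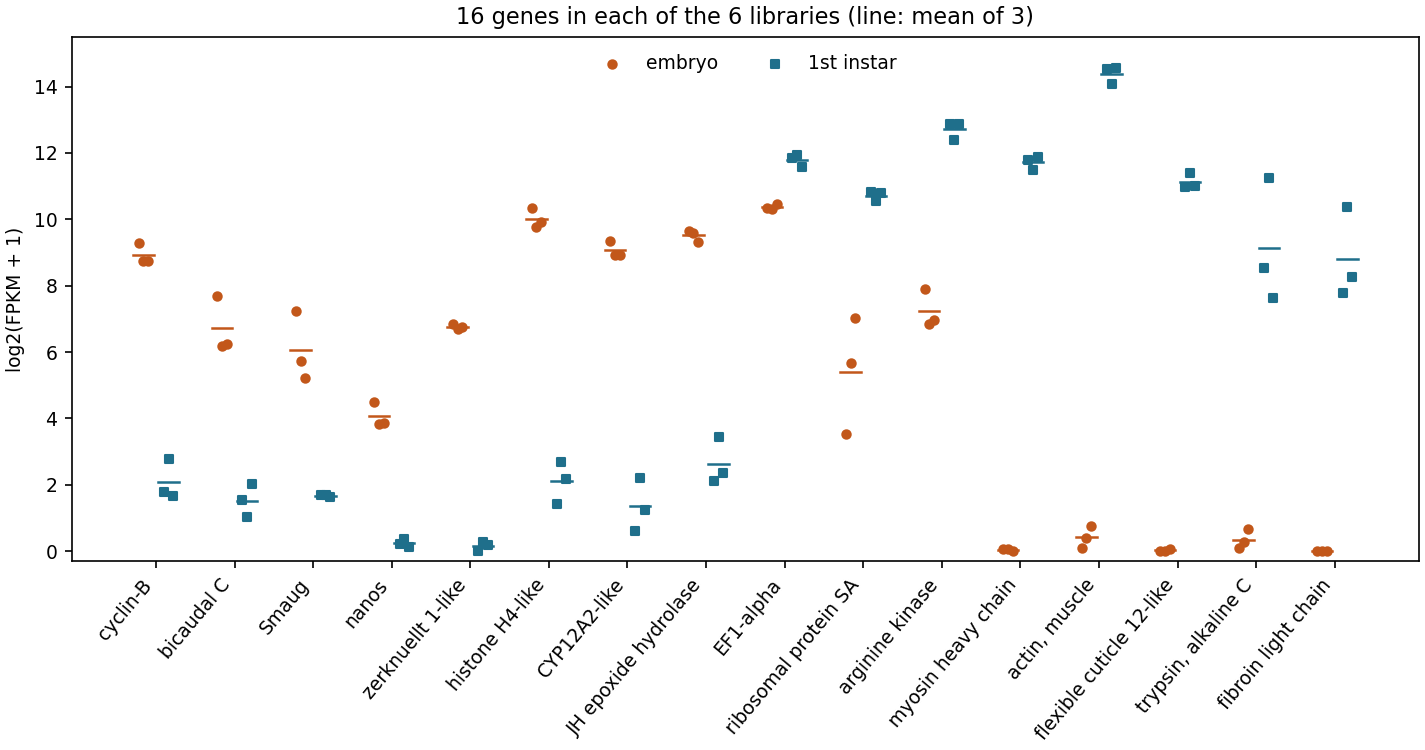
log2(FPKM + 1) of 16 genes in each of the 6 libraries; circles are embryo libraries, squares 1st instar libraries and short lines the mean of 3. From cyclin-B to the juvenile hormone (JH) epoxide hydrolase the embryo is the higher stage, from EF1-alpha to fibroin light chain the 1st instar is, and no gene shown has overlapping stages. The same holds for most tested genes (4241 higher in the embryo and 4996 in the 1st instar, of 11524). Ribosomal protein SA is spread over the embryo libraries and trypsin and fibroin over the 1st instar libraries.

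Histone genes split into an embryo set and a larval set. All 15 histone genes of the list were tested, of which 8 were called higher in the embryo, 6 in the 1st instar and 1 in neither direction, and together they took 0.731 to 0.938% of the fragments of the embryo libraries and 0.0480 to 0.0605% of those of the 1st instar libraries. A group of 4 lay next to each other on scaffold NW_021136566.1 (assembly ASM419383v2), between positions 75651 and 79882. Histone H4-like (LOC114362283) was 1308, 867 and 964 FPKM in the embryo libraries and 1.67, 5.49 and 3.56 FPKM in the 1st instar libraries (log2 fold change 7.91 ± 0.33 (SE), adjusted p = 1.75e-06). The late histone H2B.L4-like gene (LOC114362285) was 1808, 1019.6 and 1416 FPKM in the embryo libraries and 1.67, 9.74 and 7.23 FPKM in the 1st instar libraries (log2 fold change 7.80 ± 0.51 (SE), adjusted p = 1.16e-05). H3 (LOC114362289) and H2A-like (LOC114362282) of the same group averaged 188 ± 32.2 and 245 ± 7.61 FPKM in the embryo and 1.18 ± 0.735 and 0.781 ± 0.469 FPKM in the 1st instar. Away from the group, the linker histone H1.1, embryonic-like (LOC114353798), averaged 775 ± 215 FPKM in the embryo and 5.05 ± 2.64 FPKM in the 1st instar and histone H2A, sperm-like (LOC114357885), averaged 141 ± 57.5 FPKM in the embryo and 0.257 ± 0.163 FPKM in the 1st instar.

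Outside the pair of stages, these 6 genes were found in adults. The mean level of H2B.L4-like was 1801 FPKM in adults, and at most 0.0419 FPKM in 3rd and 5th instars, pupae and the 4 larval tissues. H4-like was at 1009 FPKM and H1.1, embryonic-like, at 1169 FPKM in adults, with means of at most 0.648 and 0.745 FPKM in those other groups. The larval set was low in both stages by comparison. Histone H4 (LOC114362408) was 0.879, 2.67 and 2.03 FPKM in the embryo libraries and 40.8, 27.5 and 13.95 FPKM in the 1st instar libraries (log2 fold change -3.24 ± 0.42 (SE), adjusted p = 0.000305). H2B (LOC114360995) was 0.321, 1.10 and 0.884 FPKM in the embryo libraries and 9.87, 11.6 and 7.94 FPKM in the 1st instar libraries (log2 fold change -2.62 ± 0.24 (SE), adjusted p = 5.77e-05). Of the 6 genes of that set, 3 kept their call with the other scaling. Variant H2A.V (LOC114354794), which is made outside the S phase, was 734, 829 and 725 FPKM in the embryo libraries and 185, 192 and 178 FPKM in the 1st instar libraries (log2 fold change 2.04 ± 0.13 (SE), adjusted p = 1.03e-05). The other replacement variant, H3.3 (LOC114362861), was 294, 497 and 472 FPKM in the embryo libraries and 317, 316 and 301 FPKM in the 1st instar libraries and was not called (log2 fold change 0.40), though it was with the other scaling (1.65). Histone genes are near-identical copies, and the placement of reads among them is uncertain. The histone levels and shares are also those of RNA captured with poly-T beads. Whether capture of histone RNA differed between the stages or between the histone genes was not tested.

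Chromatin, zinc finger and nuclear transport genes leaned to the embryo. Of 77 tested chromatin modifiers 39 were higher in the embryo and 2 in the 1st instar, of 232 zinc finger proteins 115 and 11, and of 48 genes of nuclear pore and transport 27 and 1. The PR-Set histone methyltransferase (LOC114364202), which marks histone H4 in condensing chromosomes, was 56.9, 77.3 and 48.8 FPKM in the embryo libraries and 1.65, 2.41 and 1.54 FPKM in the 1st instar libraries (log2 fold change 4.42 ± 0.21 (SE), adjusted p = 3.05e-06). Histone deacetylase Rpd3 (LOC114350008), a repressor of transcription, was 70.7, 94.6 and 79.9 FPKM in the embryo libraries and 11.0, 11.0 and 10.6 FPKM in the 1st instar libraries (log2 fold change 2.79). Importin alpha carries proteins into the nucleus, and the importin subunit alpha-5-like (LOC114361352) and alpha-1-like (LOC114363066) genes averaged 43.0 ± 2.32 and 23.8 ± 3.01 FPKM in the embryo against 0.846 ± 0.844 and 0.957 ± 0.255 FPKM. Zinc finger protein 100-like (LOC114354913) fell from 19.0 ± 8.58 to 0.0604 ± 0.0170 FPKM. In the other direction, chinmo (LOC114366356), known in Drosophila for the timing of neuron identity, was 0.141, 0.0880 and 0.120 FPKM in the embryo libraries and 15.03, 16.8 and 15.2 FPKM in the 1st instar libraries (log2 fold change -3.90 ± 0.16 (SE), adjusted p = 1.51e-06).

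Genes of the intercellular signalling pathways were mostly higher in the embryo, with 18 of 28 tested called there and 5 called in the 1st instar (median 1.39). The Notch ligand delta-like (LOC114365019) was 26.3, 22.6 and 23.2 FPKM in the embryo libraries and 0.844, 1.44 and 1.43 FPKM in the 1st instar libraries (log2 fold change 3.49 ± 0.18 (SE), adjusted p = 3.85e-06). An armadillo-like gene (LOC114352289), whose product is the beta-catenin of the Wnt pathway and of cell junctions, was 35.0, 61.5 and 46.9 FPKM in the embryo libraries and 2.32, 6.32 and 4.38 FPKM in the 1st instar libraries (log2 fold change 3.23). A mothers against decapentaplegic homolog (LOC114353513), which passes BMP signals to the nucleus, was 73.9, 51.2 and 58.6 FPKM in the embryo libraries and 6.19, 9.11 and 7.57 FPKM in the 1st instar libraries (log2 fold change 2.85). Against the list, a gene annotated as neurogenic locus notch homolog protein 3 (LOC114350911) was 1.14, 1.5 and 1.88 FPKM in the embryo libraries and 268, 200.4 and 282 FPKM in the 1st instar libraries (log2 fold change -6.64 ± 0.18 (SE), adjusted p = 3.67e-07).

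Homeobox and segmentation genes were called in both directions at shares near those of all genes. Of 65 tested, 18 (27.7%, against 24.7% of all tested genes) were called higher in the embryo and 27 (41.5%, against 34.6%) in the 1st instar on the deposited values. With the other scaling these were 27 and 17, so the balance of the list turned, as did that of all genes. The list left out an added gene model and the zerknuellt genes, described below, whose log2 fold changes exceeded its highest of 4.43. Homeobox genes switch on the programs of body regions and organs. Homeobox protein 10-like (LOC114362984) was 7.64, 32.8 and 33.2 FPKM in the embryo libraries and 0 FPKM in all 3 1st instar libraries. Aristaless-like 3 (LOC114356656), by contrast, was 0.0252, 0.0260 and 0.0244 FPKM in the embryo libraries and 15.8, 14.6 and 21.1 FPKM in the 1st instar libraries (log2 fold change -4.13 ± 0.19 (SE), adjusted p = 2.49e-06). Cut (LOC114357332), a selector of sense organ fate, was 0.0854, 0.0882 and 0.108 FPKM in the embryo libraries and 7.33, 6.44 and 7.95 FPKM in the 1st instar libraries (log2 fold change -2.91 ± 0.15 (SE), adjusted p = 4.08e-06).

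Direction differed along the Hox complex, a row of genes many of which assign identities to body segments. This gene group was chosen after its values were seen. On scaffold NW_021135154.1, 17 homeobox genes lay between positions 588950 and 2172717, 14 of them were tested, 7 were called higher in the embryo and 5 in the 1st instar. Proboscipedia (LOC114360265) and Hox-B4-like (LOC114360260) were not called (log2 fold changes -0.85 and 0.86). With the other scaling Hox-B4-like was called higher in the embryo (1.80) and proboscipedia was not called (-0.10). The embryo genes stood side by side, from Hox-B3a-like (LOC114360269, position 842595) to Nkx-3.1-like (LOC114360209, up to 893375), with the untested Hox-D4a-like among them and fushi tarazu further on. The strongest was a gene model added by the authors at positions 854672 to 859473, whose best Swiss-Prot match in the table is the homeotic protein deformed. Whether this model is the deformed gene itself was not tested. The model was 492, 275 and 366 FPKM in the embryo libraries and 0.0608, 0.939 and 0.546 FPKM in the 1st instar libraries (log2 fold change 7.97 ± 0.29 (SE), adjusted p = 1.01e-06) and was among the 10 genes with the most fragments in the embryo. Its neighbours on either strand were annotated as zerknuellt 1-like, named for the Drosophila gene that specifies extraembryonic tissue. LOC114360214 was 114, 103 and 106 FPKM in the embryo libraries and 0, 0.198 and 0.125 FPKM in the 1st instar libraries (log2 fold change 6.62 ± 0.14 (SE), adjusted p = 1.47e-07). LOC114360199 was 80.3, 74.0 and 77.6 FPKM in the embryo libraries and 0, 0.0822 and 0.0434 FPKM in the 1st instar libraries (log2 fold change 6.23 ± 0.14 (SE), adjusted p = 1.63e-07). Embryo libraries agreed closely for both zerknuellt genes.

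Hox-A3-like (LOC114360270) was 6.33, 15.02 and 2.41 FPKM in the embryo libraries and 0 FPKM in all 3 1st instar libraries. Nkx-3.1-like (LOC114360209) was 9.57, 49.8 and 4.47 FPKM in the embryo libraries and 0, 0.0353 and 0 FPKM in the 1st instar libraries. Fushi tarazu-like (LOC114360271), a pair-rule segmentation gene in Drosophila, was 2.95, 13.1 and 4.19 FPKM in the embryo libraries and 0, 0.0885 and 0 FPKM in the 1st instar libraries. In all of these, embryo replicate 2 was the highest library. The Hox genes of the thorax and abdomen were higher in the 1st instar. Sex combs reduced-like (LOC114360227) was 0.0176, 0.336 and 0.795 FPKM in the embryo libraries and 4.89, 2.74 and 3.44 FPKM in the 1st instar libraries (log2 fold change -1.78 ± 0.26 (SE), adjusted p = 0.000651). Antennapedia-like (LOC114360186) was 0.0211, 0.922 and 3.53 FPKM in the embryo libraries and 9.87, 9.26 and 10.3 FPKM in the 1st instar libraries (log2 fold change -2.38 ± 0.50 (SE), adjusted p = 0.00352). Ultrabithorax (LOC114360171) was 0.0433, 1.24 and 3.08 FPKM in the embryo libraries and 4.76, 4.47 and 4.88 FPKM in the 1st instar libraries (log2 fold change -1.43 ± 0.46 (SE), adjusted p = 0.0237). Abdominal-A (LOC114360197) and abdominal-B-like (LOC114360216) averaged 1.04 ± 1.21 and 0.501 ± 0.601 FPKM in the embryo and 6.43 ± 0.798 and 6.06 ± 1.58 FPKM in the 1st instar. In these 5 genes embryo replicate 1 was the lowest library and embryo replicate 3 the highest. With the other scaling, Sex combs reduced and abdominal-B kept their calls, and the calls of antennapedia, ultrabithorax and abdominal-A were lost (log2 fold changes -1.78, -0.79 and -1.46). The call of ultrabithorax was also lost when any library but embryo replicate 3 was left out, with a log2 fold change of -0.92 without embryo replicate 1.

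**Figure D4:**
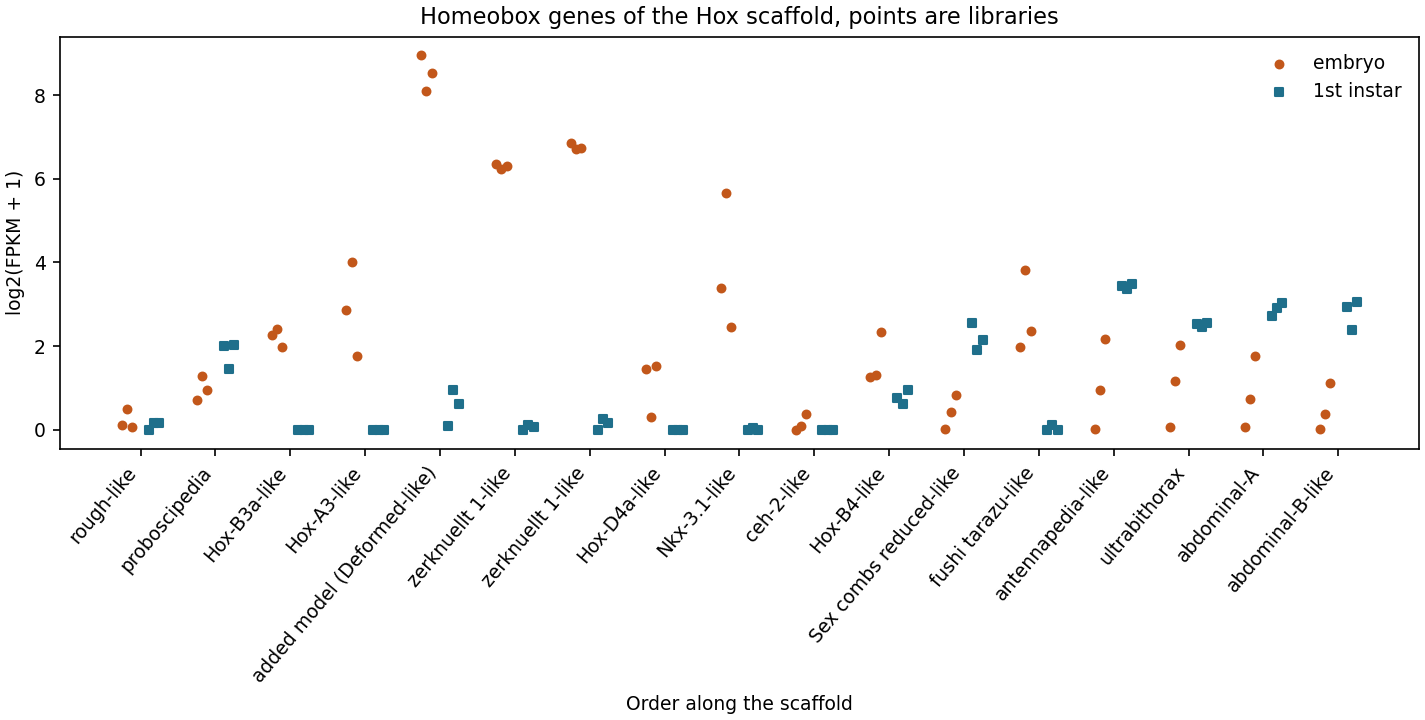
log2(FPKM + 1) of the 17 homeobox genes of the Hox scaffold, in their order along it, with 1 point per library (circles, embryo; squares, 1st instar). The block from Hox-B3a-like to Nkx-3.1-like, with fushi tarazu-like, is detected in embryo libraries and near 0 in the 1st instar, and Sex combs reduced-like and the genes from antennapedia-like to abdominal-B-like are higher in the 1st instar.

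Outside the pair of stages, the added deformed-like model and the zerknuellt genes LOC114360199 and LOC114360214 had means of 49.6, 32.3 and 9.27 FPKM in adults and at most 0.0245 FPKM in 3rd and 5th instars, pupae and larval tissues. Ultrabithorax and abdominal-A had means of 11.9 and 7.68 FPKM in the fat body, and antennapedia 11.2 FPKM in the silk gland. These levels carry the authors' scaling between groups, and no test was made on them.

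Transcripts of the cytosolic ribosome and of the respiratory chain were higher in the larvae under both scalings. All 78 tested cytosolic ribosomal protein genes were called higher in the 1st instar on the deposited values, and 77 of 78 with the other scaling (median log2 fold changes -3.22 and -1.97). They took 2.45 to 4.50% of the fragments of the embryo libraries and 11.9 to 12.7% of those of the 1st instar libraries. Ribosomal protein SA of the small subunit (LOC114351376) was 10.47, 49.5 and 130.3 FPKM in the embryo libraries and 1792, 1496 and 1767 FPKM in the 1st instar libraries (log2 fold change -5.31 ± 0.79 (SE), adjusted p = 0.000641). S2 (LOC114366336) was 22.02, 162 and 422 FPKM in the embryo libraries and 2895, 2819 and 2780.1 FPKM in the 1st instar libraries (log2 fold change -4.60 ± 0.95 (SE), adjusted p = 0.00330). S20 (LOC114363239) was 56.1, 164 and 253 FPKM in the embryo libraries and 2707, 2272 and 2835 FPKM in the 1st instar libraries (log2 fold change -4.28 ± 0.51 (SE), adjusted p = 0.000206). Embryo replicate 1 was the lowest embryo library for 73 of the 78 genes, against 37.1% of all tested genes, and replicate 3 was the highest for 73. Without embryo replicate 1, all 78 were still called and the median was -2.96. Elongation factor 1-alpha (LOC114359586), which brings transfer RNAs to the ribosome, was 1282, 1261 and 1411 FPKM in the embryo libraries and 3685, 3885 and 3057 FPKM in the 1st instar libraries (log2 fold change -1.42 ± 0.20 (SE), adjusted p = 0.000472). With the other scaling it was not called (log2 fold change -0.16).

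Respiratory chain genes of the nucleus behaved alike. Of 70 tested, 68 were called higher in the larvae and 1 in the embryo (median -3.49; 0 to 2 in the embryo when single libraries were left out), and with the other scaling 62 and 2. A NADH dehydrogenase 1 alpha subunit gene (LOC114354590) was 0.0372, 0.0256 and 0.0965 FPKM in the embryo libraries and 73.9, 54.1 and 69.0 FPKM in the 1st instar libraries (log2 fold change -5.97 ± 0.17 (SE), adjusted p = 4.23e-07). Subunit 8-like of the cytochrome b-c1 complex (LOC114366214) averaged 28.03 ± 3.48 FPKM in the embryo and 714 ± 101 FPKM in the 1st instar, and NDUFA4 of cytochrome c oxidase (LOC114350499) averaged 45.2 ± 5.45 FPKM in the embryo and 1043 ± 100.3 FPKM in the 1st instar. Protein genes of the mitochondrial genome followed, with 10 of 10 tested called higher in the 1st instar. COX1, a core subunit of cytochrome c oxidase, was 502, 985 and 948 FPKM in the embryo libraries and 11473, 8931 and 12374 FPKM in the 1st instar libraries (log2 fold change -3.80 ± 0.33 (SE), adjusted p = 4.13e-05). An added gene model whose Swiss-Prot match is a mitochondrial NADH dehydrogenase chain (scaffold NW_021134071.1, positions 255309 to 258817) had the highest mean number of fragments in both stages, with 7661, 18614 and 10438 fragments per 1000000 of the library in the embryo and 106149, 73345 and 126373 in the 1st instar libraries. Mitochondrial ribosomal proteins were called higher in the 1st instar at 64 of 73 genes on the deposited values and at 13 with the other scaling.

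Other housekeeping machines had fewer calls on the deposited values. The proteasome had 5 of 43 tested genes called higher in the embryo and 11 in the 1st instar, against 18 and 0 with the other scaling. Splicing genes had 15 and 26 of 129, against 68 and 3, and transfer RNA ligases 2 and 13 of 39, against 14 and 4. The balance of these 3 lists turned with the scaling, as did that of all genes. Of all tested genes, 24.7% were called higher in the embryo and 34.6% in the 1st instar on the deposited values. With the other scaling these shares were 48.1% and 24.0%. The proteasome count for the 1st instar was 6 without embryo replicate 2 and 7 without 1st instar replicate 1. One proteasome regulatory subunit gene (LOC114361600) stood out, at 106, 64.4 and 74.7 FPKM in the embryo libraries and 4.41, 5.12 and 5.16 FPKM in the 1st instar libraries (log2 fold change 3.78 ± 0.20 (SE), adjusted p = 4.13e-06). Heat shock proteins and chaperones had 17 and 20 of 71, against 39 and 6, so that list turned as well. Within it, genes with the same name went opposite ways. Heat shock protein 68-like LOC114353217 was 33.8, 17.7 and 14.2 FPKM in the embryo libraries and 0.0252, 0 and 0.143 FPKM in the 1st instar libraries (log2 fold change 4.35 ± 0.32 (SE), adjusted p = 1.87e-05). Heat shock protein 68-like LOC114356221 was 0.615, 0.437 and 12.1 FPKM in the embryo libraries and 48.2, 62.5 and 79.5 FPKM in the 1st instar libraries (log2 fold change -4.34 ± 0.81 (SE), adjusted p = 0.00206).

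Single muscle genes had very large differences between the stages. Of the 10 genes with an informative description and the lowest log2 fold changes, 9 encode muscle proteins. Actin, muscle (LOC114358245), the thin filament protein, was 0.0625, 0.323 and 0.688 FPKM in the embryo libraries and 23667, 17164 and 23876 FPKM in the 1st instar libraries (log2 fold change -13.96 ± 0.22 (SE), adjusted p = 4.17e-08). Muscle myosin heavy chain (LOC114358802), the motor of the thick filament, was 0.0419, 0.0354 and 0.00370 FPKM in the embryo libraries and 3565, 2862 and 3735 FPKM in the 1st instar libraries (log2 fold change -11.68 ± 0.14 (SE), adjusted p = 2.72e-08). Troponin I (LOC114362320), which holds the thin filament off until calcium arrives, was 0.109, 0.168 and 0.194 FPKM in the embryo libraries and 6432, 4852 and 6366 FPKM in the 1st instar libraries (log2 fold change -12.30 ± 0.14 (SE), adjusted p = 2.72e-08). Myosin light chain alkali (LOC114361409), muscle-specific protein 20 (LOC114351102) and troponin C (LOC114359674) were listed at 0 in all 3 embryo libraries and averaged 9865 ± 1599.8, 4550.0 ± 678 and 3165 ± 599 FPKM in the 1st instar.

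Over the list, 36 of 43 tested muscle genes were called higher in the larvae and 4 in the embryo (median -5.25), and the list took 0.325 to 0.584% of the fragments of the embryo libraries and 13.1 to 15.3% of those of the 1st instar libraries. Arginine kinase (LOC114366204), which buffers ATP in insect muscle, was 240.0, 114 and 123 FPKM in the embryo libraries and 7422, 5395 and 7538 FPKM in the 1st instar libraries (log2 fold change -5.47 ± 0.32 (SE), adjusted p = 6.68e-06). Not every relative followed. Troponin C-like LOC114354116 was 0.239, 4.37 and 9.71 FPKM in the embryo libraries and 8.70, 7.23 and 9.83 FPKM in the 1st instar libraries and was not called (log2 fold change -1.20, adjusted p = 0.164). A sarcoplasmic calcium-binding protein (LOC114357637) was 175, 93.3 and 124 FPKM in the embryo libraries and 6.38, 8.23 and 2.99 FPKM in the 1st instar libraries (log2 fold change 4.30 ± 0.35 (SE), adjusted p = 3.45e-05).

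Cuticle proteins, which bind chitin to form the exoskeleton, were mostly larval. Of 76 tested genes 68 were called higher in the larvae and 5 in the embryo (median -4.37). The latter count was 3 when embryo replicate 2 or 3 or 1st instar replicate 1 or 3 was left out. Larval cuticle protein LCP-17-like (LOC114358775) was 0.268, 0.369 and 0.304 FPKM in the embryo libraries and 1762, 3241 and 1838 FPKM in the 1st instar libraries (log2 fold change -10.70 ± 0.24 (SE), adjusted p = 1.64e-07). Flexible cuticle protein 12-like LOC114356426 was 0, 0 and 0.0464 FPKM in the embryo libraries and 2020.0, 2693 and 2043 FPKM in the 1st instar libraries (log2 fold change -11.10 ± 0.15 (SE), adjusted p = 2.72e-08). Pupal cuticle protein 36a-like (LOC114366553) was listed at 0 in all 3 embryo libraries and was 1196, 785 and 1471 FPKM in the 1st instar libraries. Tyrosine 3-monooxygenase (LOC114361187), the first enzyme of tanning and melanin, was 0.0259, 0.990 and 3.66 FPKM in the embryo libraries and 194, 160.1 and 219 FPKM in the 1st instar libraries (log2 fold change -6.49 ± 0.50 (SE), adjusted p = 2.54e-05). Protein yellow-like (LOC114358874), a pigment gene, was 0.112, 0.103 and 0.206 FPKM in the embryo libraries and 88.0, 74.0 and 88.2 FPKM in the 1st instar libraries (log2 fold change -6.21 ± 0.15 (SE), adjusted p = 1.90e-07). A relative of the latter, the dopachrome tautomerase yellow-f2-like (LOC114360989), was 57.8, 40.7 and 44.0 FPKM in the embryo libraries and 1.82, 2.01 and 1.96 FPKM in the 1st instar libraries (log2 fold change 4.03 ± 0.17 (SE), adjusted p = 1.82e-06).

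Some of the largest log2 fold changes towards the embryo were those of genes named as cuticle proteins and of a glycine-rich protein gene, and their levels varied widely among the embryo pools. Flexible cuticle protein 12-like LOC114366510 was 141, 626 and 1747 FPKM in the embryo libraries and 0 FPKM in all 3 1st instar libraries. Flexible cuticle protein 12-like LOC114357745 was 61.9, 520.4 and 1044 FPKM in the embryo libraries and 0.133, 0 and 0.125 FPKM in the 1st instar libraries (log2 fold change 8.23 ± 0.93 (SE), adjusted p = 0.000164). Glycine-rich protein 23-like (LOC114360585) was 106, 1055 and 1612 FPKM in the embryo libraries and 0.0938, 0 and 0.354 FPKM in the 1st instar libraries (log2 fold change 8.96 ± 0.94 (SE), adjusted p = 0.000107). In each, replicate 1 was the lowest embryo library and replicate 3 the highest, and every embryo library was above every 1st instar library. LOC114366510 lay on scaffold NW_021130874.1 with other genes of this pattern, looked up after their values were seen. Titin-like LOC114366501 was 38.8, 189 and 558 FPKM in the embryo libraries and 0.150, 0.348 and 0.368 FPKM in the 1st instar libraries (log2 fold change 6.98 ± 0.85 (SE), adjusted p = 0.000236). Endocuticle structural glycoprotein LOC114366472 was 1.03, 619 and 1794 FPKM in the embryo libraries and 0.964, 0.123 and 0 FPKM in the 1st instar libraries. In the latter, replicate 1 was in the range of the larval libraries, and its call was lost when any of 5 libraries, embryo replicates 2 and 3 and each 1st instar replicate, was left out (adjusted p of 0.0762 to 0.103). The share of fragments in the cuticle list was 0.0636, 0.494 and 1.22% in embryo replicates 1, 2 and 3, and 0.980 to 1.26% in the 1st instar libraries. Without embryo replicate 1, 69 of 82 cuticle genes were called higher in the larvae and 7 in the embryo.

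Most called genes of digestive enzymes were higher in the larvae, and 1st instar replicate 2 held much more of these transcripts than the other larval libraries. Of 45 tested trypsins and chymotrypsins, 36 were called higher in the larvae and 3 in the embryo (median -3.42). Trypsin, alkaline C-like LOC114351937 was 0.0587, 0.212 and 0.599 FPKM in the embryo libraries and 368, 2401 and 197 FPKM in the 1st instar libraries (log2 fold change -8.78 ± 0.84 (SE), adjusted p = 6.93e-05). Another gene of that name, LOC114351939, was 0.0327, 0.0337 and 0 FPKM in the embryo libraries and 217, 428 and 84.3 FPKM in the 1st instar libraries (log2 fold change -7.61 ± 0.53 (SE), adjusted p = 1.50e-05). The paper lists LOC114351939 as a serine protease homolog with substitutions in the catalytic triad, so it is not predicted to be an active protease. Collagenase-like LOC114358766, another serine protease, was 0.0296, 0 and 0.115 FPKM in the embryo libraries and 137, 479 and 126 FPKM in the 1st instar libraries. In all 3 genes replicate 2 was the highest larval library and no library of the stages overlapped. Replicate 2 was the highest larval library for 33 of the 45 genes, against 36.9% of all tested genes, and exceeded the mean of the other larval libraries by a median of 2.12 on the log2 scale. Without it, 36 of 46 were called higher in the 1st instar and the median was -2.54. An embryo gene of the list was Hayan-like (LOC114358321), a protease of the melanization cascade in Drosophila, at 21.5 ± 7.99 FPKM in the embryo and 1.58 ± 0.550 FPKM in the 1st instar.

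Lipases had 34 of 43 tested genes called higher in the larvae and 1 in the embryo, amino- and carboxypeptidases 24 and 6 of 47, and carbohydrate-digesting enzymes 11 and 3 of 21. Without 1st instar replicate 2 these counts were 35 and 2 of 46, 24 and 6 of 48, and 9 and 2 of 22. The 1 lipase gene higher in the embryo became 2 when any library but embryo replicate 3 was left out. With the other scaling, the carbohydrate list was even, at 6 and 6. By share of fragments, amino- and carboxypeptidases took 0.169 to 0.177% of the fragments of the embryo libraries and 0.107 to 0.283% of those of the 1st instar libraries, but 0.110 and 0.107% in 1st instar replicates 1 and 3, below every embryo library. Carbohydrate enzymes took 0.0349 to 0.0763% of the embryo libraries, 0.0267 and 0.0230% of 1st instar replicates 1 and 3 and 0.118% of replicate 2. Lipase 1-like LOC114352105 was 0.0439, 0 and 0 FPKM in the embryo libraries and 36.2, 147 and 49.5 FPKM in the 1st instar libraries (log2 fold change -6.01 ± 0.48 (SE), adjusted p = 2.89e-05). Maltase 2-like (LOC114351782), which splits disaccharides, was 0.0397, 0 and 0 FPKM in the embryo libraries and 7.72, 100.2 and 2.85 FPKM in the 1st instar libraries (log2 fold change -3.89 ± 1.09 (SE), adjusted p = 0.0135). Membrane alanyl aminopeptidase-like genes encode enzymes of the midgut brush border, and LOC114361315 was 0.00777, 0.0241 and 0.00755 FPKM in the embryo libraries and 4.78, 88.1 and 2.39 FPKM in the 1st instar libraries (log2 fold change -3.57 ± 1.12 (SE), adjusted p = 0.0217), a call that was lost without embryo replicate 2 (adjusted p = 0.0545). LOC114361548 was 0, 0.0176 and 0.0414 FPKM in the embryo libraries and 2.06, 56.7 and 1.30 FPKM in the 1st instar libraries and was not called (adjusted p = 0.0522), but was without replicate 2 (log2 fold change -1.38, adjusted p = 0.000494).

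Genes of the peritrophic matrix, the chitin lining of the gut, included members that shared this pattern in the larvae. Of 12 tested chitin and peritrophic matrix genes 4 were called higher in the larvae and 3 in the embryo (median 0.23). These shares of 33.3% and 25% were near those of all tested genes, 34.6% and 24.7%. With the other scaling the counts were 4 and 7, so the balance turned, as did that of all genes. The 3 embryo genes were annotated as probable chitinases, enzymes that cut chitin, and among them LOC114361591 was 27.9, 34.7 and 28.03 FPKM in the embryo libraries and 10.02, 14.99 and 11.96 FPKM in the 1st instar libraries (log2 fold change 1.24 ± 0.18 (SE), adjusted p = 0.000556). Peritrophin-1-like (LOC114360160) was 0, 0 and 0.0230 FPKM in the embryo libraries and 3.61, 63.8 and 3.16 FPKM in the 1st instar libraries (log2 fold change -3.42 ± 1.00 (SE), adjusted p = 0.0161). Endochitinase-like LOC114362089 was 0, 0 and 0.0860 FPKM in the embryo libraries and 17.9, 256 and 13.99 FPKM in the 1st instar libraries (log2 fold change -5.35 ± 1.01 (SE), adjusted p = 0.00217). Chitin synthase chs-2-like (LOC114357634), the gut enzyme, was 0.0891, 0 and 0.0866 FPKM in the embryo libraries and 2.98, 8.12 and 2.56 FPKM in the 1st instar libraries (log2 fold change -2.26 ± 0.35 (SE), adjusted p = 0.000801). Silk genes did so as well, with all 3 tested called higher in the 1st instar. Fibroin light chain-like (LOC114360339) was 0 FPKM in all 3 embryo libraries and 217, 1328 and 305 FPKM in the 1st instar libraries. Seroin-like (LOC114363599), a small silk protein, was 0, 0 and 0.0259 FPKM in the embryo libraries and 38.9, 118 and 46.2 FPKM in the 1st instar libraries (log2 fold change -5.91 ± 0.40 (SE), adjusted p = 1.31e-05). Of the 168 genes higher in 1st instar replicate 2, 131 were called higher in the 1st instar than in the embryo, 15 were trypsins or chymotrypsins, 13 amino- or carboxypeptidases and 11 lipases. Without this library, 4 chitin and peritrophic matrix genes and 3 silk genes were called higher in the 1st instar, and 3 and 0 in the embryo.

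**Figure D5:**
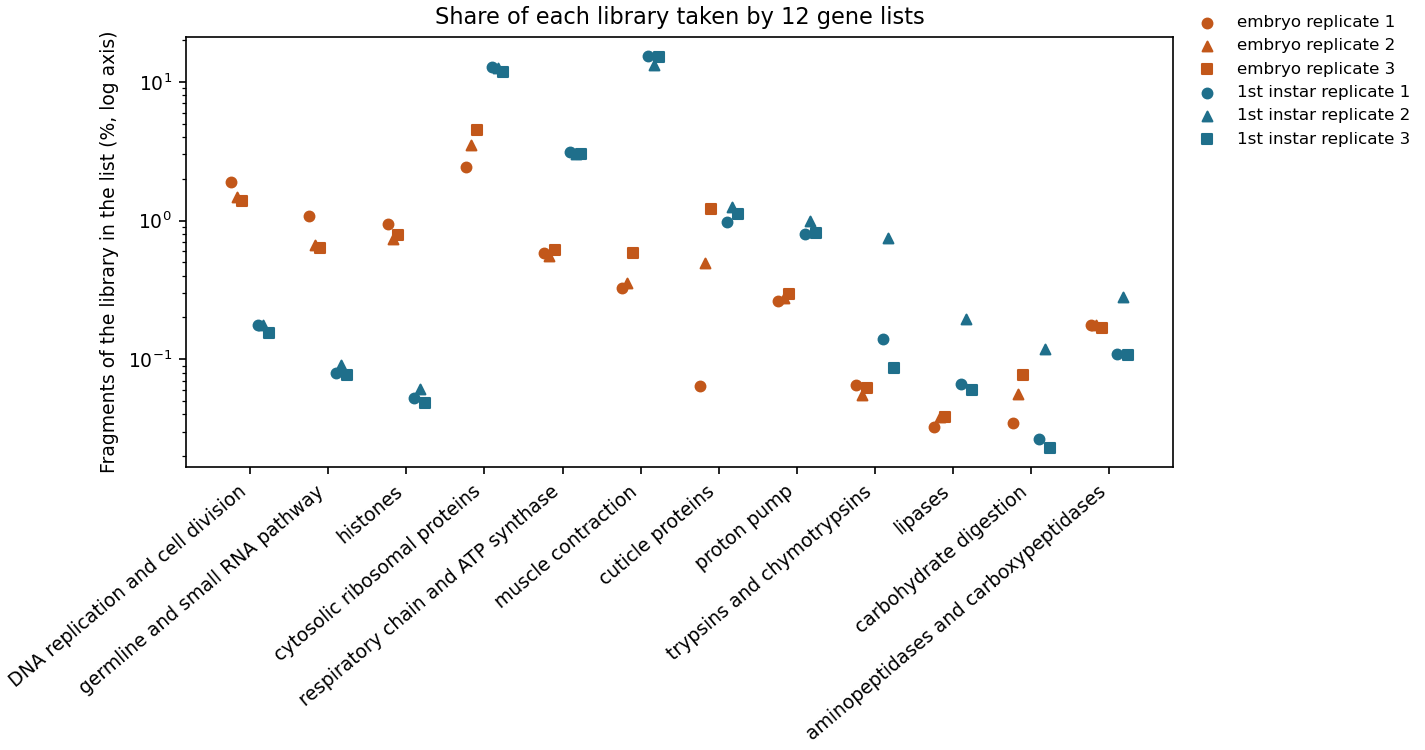
Percentage of a library's recovered fragments in 12 gene lists (log axis), 1 point per library, with the replicate shown by the symbol. Cell division, germline and histone genes take more of the embryo libraries, ribosomal, respiratory, muscle and proton pump genes more of the 1st instar libraries. Embryo replicate 1 is low for cuticle proteins (0.0636%), and 1st instar replicate 2 is high for trypsins (0.747%).

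The vacuolar proton pump, which energizes transport across the lepidopteran midgut, was higher in the larvae. Of 17 tested subunit genes 16 were called higher in the larvae and 0 in the embryo (median -2.69). Catalytic subunit A (LOC114349659) was 30.5, 28.1 and 35.5 FPKM in the embryo libraries and 393, 424 and 398 FPKM in the 1st instar libraries (log2 fold change -3.65 ± 0.13 (SE), adjusted p = 9.01e-07). Sugar transporters had 30 of 54 called higher in the larvae and 8 in the embryo. Among the trehalose transporters Tret1-like, LOC114356915 was 0.519, 6.60 and 13.9 FPKM in the embryo libraries and 93.6, 95.9 and 94.1 FPKM in the 1st instar libraries and LOC114356172 was 43.9, 17.5 and 16.04 FPKM in the embryo libraries and 0.174, 0.380 and 0.0364 FPKM in the 1st instar libraries, in opposite directions (log2 fold changes -4.10 and 4.35, adjusted p = 0.00183 and 4.64e-05).

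Most called genes of the detoxification families were higher in the larvae, while a few cytochrome P450 genes were high in the embryo. Of 46 tested cytochrome P450 genes 33 were called higher in the larvae and 6 in the embryo (11 of 52 without embryo replicate 1), yet the list took 0.319 to 0.417% of the fragments of the embryo libraries and 0.0853 to 0.145% of those of the 1st instar libraries. CYP12A2-like LOC114350695 alone took 2363, 1715 and 1721 fragments per 1000000 of the embryo libraries. Its level was 652, 484 and 489 FPKM in the embryo libraries and 0.511, 3.58 and 1.37 FPKM in the 1st instar libraries (log2 fold change 7.73 ± 0.38 (SE), adjusted p = 3.35e-06). Its neighbour LOC114350696 on scaffold NW_021131193.1 was 127, 67.5 and 66.3 FPKM in the embryo libraries and 0.0389, 0.488 and 0.0735 FPKM in the 1st instar libraries (log2 fold change 6.15 ± 0.29 (SE), adjusted p = 2.84e-06). A pair of CYP12A2-like genes on the same scaffold had the opposite direction, LOC114350691 with 2.05 ± 0.529 FPKM in the embryo and 29.8 ± 3.56 FPKM in the 1st instar and LOC114350698 with 0.328 ± 0.0208 FPKM in the embryo and 3.13 ± 0.624 FPKM in the 1st instar (log2 fold changes -3.34 and -1.63). These genes lay between positions 642240 and 670972. The P450 4g15 gene (LOC114365112), of a subfamily that makes cuticular hydrocarbons in insects, was 0.0623, 0.0386 and 0.363 FPKM in the embryo libraries and 104.7, 112 and 87.7 FPKM in the 1st instar libraries (log2 fold change -6.48 ± 0.18 (SE), adjusted p = 3.46e-07). 6B7-like (LOC114354103), of a subfamily that detoxifies plant compounds, was 0.0152, 0.0782 and 0.412 FPKM in the embryo libraries and 29.0, 45.1 and 26.2 FPKM in the 1st instar libraries (log2 fold change -4.86 ± 0.25 (SE), adjusted p = 4.13e-06). Glutathione and UDP-glucosyl transferases had 30 of 40 called higher in the larvae and 0 in the embryo, and carboxylesterases 26 and 1 of 35. The embryo count of carboxylesterases was 3 without embryo replicate 1 and 2 without 1st instar replicate 2. Glutathione S-transferase 1-like (LOC114359747) was 47.1, 45.5 and 54.2 FPKM in the embryo libraries and 829.7, 689 and 883 FPKM in the 1st instar libraries (log2 fold change -4.00 ± 0.15 (SE), adjusted p = 1.08e-06).

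Hormone genes showed the same arrangement. Of 32 tested genes for ecdysone and juvenile hormone, 20 were called higher in the larvae and 6 in the embryo, and the list took 0.673 to 0.925% of the fragments of the embryo libraries and 0.108 to 0.145% of those of the 1st instar libraries. Juvenile hormone epoxide hydrolase opens the epoxide of the hormone and so inactivates it. The embryo gene LOC114359902 was 801, 775 and 642 FPKM in the embryo libraries and 3.29, 9.83 and 4.11 FPKM in the 1st instar libraries (log2 fold change 6.89 ± 0.34 (SE), adjusted p = 3.10e-06) and was among the 10 genes with most fragments in the embryo. A cluster of 3 relatives on scaffold NW_021135145.1, LOC114360140, LOC114360142 and LOC114360143, averaged 0.142 ± 0.155, 0.0849 ± 0.0791 and 3.87 ± 4.31 FPKM in the embryo and 25.4 ± 4.70, 35.5 ± 2.47 and 71.4 ± 6.09 FPKM in the 1st instar, with log2 fold changes of -4.53, -5.07 and -4.41. Another gene of that name, LOC114351710, averaged 6.13 ± 0.335 FPKM in the embryo and 4.25 ± 0.942 FPKM in the 1st instar and was not called. Ecdysone-induced protein 78C-like (LOC114359275), a nuclear receptor, was 311, 248 and 175 FPKM in the embryo libraries and 8.86, 8.07 and 10.01 FPKM in the 1st instar libraries (log2 fold change 4.59 ± 0.22 (SE), adjusted p = 2.80e-06). A juvenile hormone-binding protein-like gene (LOC114362130) was 0.0336, 0.208 and 0.0327 FPKM in the embryo libraries and 43.5, 41.2 and 25.4 FPKM in the 1st instar libraries (log2 fold change -5.08 ± 0.24 (SE), adjusted p = 2.73e-06).

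Takeout-like proteins, which resemble carriers of that hormone, split too, with 11 of 18 called higher in the larvae and 4 in the embryo. Takeout-like LOC114366646 was 0.0242, 0.0999 and 0.0470 FPKM in the embryo libraries and 192, 155 and 235 FPKM in the 1st instar libraries (log2 fold change -7.51 ± 0.18 (SE), adjusted p = 1.86e-07). Takeout-like LOC114350703 was 14.4, 135 and 195 FPKM in the embryo libraries and 0, 0 and 0.368 FPKM in the 1st instar libraries (log2 fold change 6.06 ± 0.89 (SE), adjusted p = 0.000592). Of the enzymes that desaturate, elongate or reduce fatty acids, 28 of 42 were called higher in the larvae and 4 in the embryo. An acyl-CoA Delta(11) desaturase-like gene (LOC114363234), of the family that makes moth pheromones, was 0, 0.0218 and 0 FPKM in the embryo libraries and 193, 116 and 89.1 FPKM in the 1st instar libraries (log2 fold change -6.98 ± 0.28 (SE), adjusted p = 1.45e-06). A fatty acyl-CoA reductase (LOC114353509) was 57.6, 43.9 and 60.1 FPKM in the embryo libraries and 0.840, 0.752 and 0.433 FPKM in the 1st instar libraries (log2 fold change 5.03 ± 0.19 (SE), adjusted p = 1.16e-06).

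Genes of the nervous system and the senses were larval. Of 119 tested neuronal genes 93 were called higher in the larvae and 13 in the embryo (median -2.32). A putative neuropeptide precursor (LOC114362637) was 0.445, 0.442 and 0.383 FPKM in the embryo libraries and 608, 494 and 709 FPKM in the 1st instar libraries (log2 fold change -8.72 ± 0.16 (SE), adjusted p = 6.88e-08). Neuropeptide-like 4 (LOC114357694) was listed at 0 in all 3 embryo libraries and was 143, 137 and 147 FPKM in the 1st instar libraries. An exception was an ultraviolet-sensitive opsin-like gene (LOC114360932), a light receptor by name, at 49.1, 58.2 and 39.9 FPKM in the embryo libraries and 0.621, 0.641 and 0.346 FPKM in the 1st instar libraries (log2 fold change 5.02 ± 0.19 (SE), adjusted p = 1.27e-06). Odorant-binding and chemosensory proteins, small carriers secreted around sensory neurons, had 9 of 11 called higher in the larvae and 0 in the embryo. The ejaculatory bulb-specific protein 3-like gene (LOC114363416), a name given to chemosensory proteins, was listed at 0 in all 3 embryo libraries and was 2158, 1253 and 2029 FPKM in the 1st instar libraries. General odorant-binding protein 56d-like (LOC114351082) was likewise at 0 in the embryo and 259, 223 and 283 FPKM in the larvae. Only 10 of 82 odorant, gustatory and ionotropic receptor genes passed the filter, of which 6 were called higher in the 1st instar.

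Most called immune genes were higher in the larvae, but the share of fragments in the list overlapped between the stages. Of 28 tested recognition and antimicrobial genes 23 were called higher in the larvae and 1 in the embryo (median -2.41), or 2 in the embryo without embryo replicate 1. They took 0.0247 to 0.0918% of the fragments of the embryo libraries and 0.0345 to 0.0717% of those of the 1st instar libraries, with the highest share in embryo replicate 3. A beta-1,3-glucan-binding protein (LOC114366674), which recognizes fungal cell walls, was 0.109, 0.188 and 0.0354 FPKM in the embryo libraries and 108, 69.1 and 84.3 FPKM in the 1st instar libraries (log2 fold change -6.29 ± 0.20 (SE), adjusted p = 5.76e-07). Lysozyme-like LOC114359227, which cuts bacterial walls, was listed at 0 in all 3 embryo libraries and was 61.6, 70.4 and 29.0 FPKM in the 1st instar libraries. Lebocin-4-like (LOC114351993), an antimicrobial peptide of moths, was 0.0649, 0.0670 and 0 FPKM in the embryo libraries and 24.0, 27.9 and 8.72 FPKM in the 1st instar libraries (log2 fold change -4.20 ± 0.40 (SE), adjusted p = 7.20e-05). Outside this list, a phenoloxidase-activating enzyme-like gene (LOC114353730), of the melanization cascade, was higher in the embryo. It was 186, 160.0 and 141 FPKM in the embryo libraries and 27.4, 26.8 and 20.1 FPKM in the 1st instar libraries (log2 fold change 2.67 ± 0.17 (SE), adjusted p = 9.96e-06). Serpins and other protease inhibitors had 13 of 24 called higher in the larvae and 5 in the embryo. Alaserpin-like (LOC114350948), an inhibitor of serine proteases, was among the 10 genes with most fragments in the embryo, at 899.6, 919.9 and 698 FPKM in the embryo libraries and 219, 187 and 171 FPKM in the 1st instar libraries (log2 fold change 2.12 ± 0.17 (SE), adjusted p = 3.32e-05).

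The basement membrane, the sheet of matrix under epithelia and around organs, had 33 of 50 tested genes called higher in the larvae and 5 in the embryo (8 of 52 without embryo replicate 1). Collagen alpha-1(IV) (LOC114354526), its scaffold, was 0.0524, 0.354 and 0.153 FPKM in the embryo libraries and 67.2, 124 and 30.7 FPKM in the 1st instar libraries (log2 fold change -5.78 ± 0.46 (SE), adjusted p = 2.98e-05). A SPARC-like gene (LOC114360119), whose product binds that collagen, was 0.272, 0.643 and 0.642 FPKM in the embryo libraries and 100.1, 154 and 85.3 FPKM in the 1st instar libraries (log2 fold change -6.20 ± 0.24 (SE), adjusted p = 1.44e-06). An integrin beta gene (LOC114351986, pat-3-like) was 5.07, 23.9 and 59.1 FPKM in the embryo libraries and 0.987, 1.46 and 0.699 FPKM in the 1st instar libraries (log2 fold change 3.37 ± 0.76 (SE), adjusted p = 0.00498). Embryo replicate 1 was the lowest embryo library for 38 of the 50 genes. Of the antioxidant genes, 18 of 33 were called higher in the larvae and 5 in the embryo. With the other scaling these were 10 and 11, so that balance turned, as did that of all genes. A superoxide dismutase-like gene (LOC114361201) was 0.0234, 0.507 and 0.4999 FPKM in the embryo libraries and 66.5, 44.9 and 82.0 FPKM in the 1st instar libraries (log2 fold change -5.59 ± 0.27 (SE), adjusted p = 3.05e-06). A peroxidase-like gene (LOC114363894) was 240.0, 139 and 164 FPKM in the embryo libraries and 0.348, 1.14 and 0.547 FPKM in the 1st instar libraries (log2 fold change 6.75 ± 0.26 (SE), adjusted p = 1.27e-06).

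The most abundant embryo transcripts included genes of unknown role. A predicted GPI-anchored protein (LOC114366519) was 1270.2, 1848 and 1337 FPKM in the embryo libraries and 18.6, 33.3 and 20.4 FPKM in the 1st instar libraries (log2 fold change 5.91 ± 0.25 (SE), adjusted p = 1.96e-06). An uncharacterized gene (LOC114364701) was 684, 1044 and 716 FPKM in the embryo libraries and 72.6, 127 and 76.6 FPKM in the 1st instar libraries (log2 fold change 3.15 ± 0.27 (SE), adjusted p = 3.91e-05). Tubulin alpha (LOC114363268), of the spindle and cytoskeleton, was 1078, 1101 and 1311 FPKM in the embryo libraries and 2213, 1822 and 2052 FPKM in the 1st instar libraries and was not called. Its direction flipped with the scaling, from a log2 fold change of -0.80 to 0.45. Among the 1950 tested protein-coding genes with an uncharacterized product, 28.4% were called higher in the embryo and 37.2% in the 1st instar, close to the shares of all tested genes. Of 754 tested gene models added by the authors, 15.4% were called higher in the embryo and 40.3% in the 1st instar. The median gene length was 2170 bases for genes higher in the embryo, 1598 bases for those higher in the 1st instar and 1968 bases for those not called.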

How the data were processed

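Messenger RNA of 30 libraries from whole insects and larval tissues was purified by the authors with poly-T beads. It was sequenced as 150-base reads, cleaned and aligned with HISAT2 2.0.5 (version per the labels). The paper names RSEM for its expression levels and does not state how the deposited table was made. The authors deposited 1 table of FPKM values, whose header names no unit. Each value times gene length is a whole multiple (within 0.02) of 1 amount per library, for 100% of the low values checked, which gave the fragments per gene and showed a scaling between libraries. Gene names, descriptions and positions are those of the table, and 17153 of 17308 annotated gene IDs matched RefSeq ASM419383v2, 1 of them with another start position.

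Genes that reached 1 FPKM in 3 or more of the 6 embryo and 1st instar libraries (in 2 where a library was left out) were tested with limma 3.58.1 (limma-trend with R 4.3.3) on log2(FPKM + 1), with Benjamini-Hochberg adjustment over all 11524 genes. A gene was called at an adjusted p under 0.05 with a log2 fold change of 1 or more in size. The script was tested on simulated data. The 43 gene lists were made from words in the descriptions, with false matches removed, and the protein genes of the mitochondrial genome were taken by their place. Genes were named by rule: the 10 largest changes in each direction, the 10 genes with most fragments in each stage, up to 3 called members of each list in its main direction and 2 in the other, and stage markers. Not every gene under the rule is printed, and others were chosen after their values were seen. The members, lists and rules were chosen with earlier results of these data known. Alternatives were a pseudocount of 0.1, other filters, other scalings, limma-voom on recovered fragments, 1 fit over the libraries of all stages, a replicate block and leaving out libraries. A scaling without the most abundant genes and leaving out both libraries that stood apart most were added after the data were seen. Depth limits the precision of genes with few fragments. The SDs given are spreads between the 3 pools of a stage. The SEs are those of limma-trend over the 6 libraries, which also draws on the spread of all tested genes.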

Additional observations from a re-analysis of the deposited data

How the results depend on the processing

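The number of genes called higher in the embryo was 2843 on the deposited values and moved by over 1.5 times only with the scaling among the alternatives run. It was 5545 with libraries scaled to recovered fragments, 5700 by limma-voom on those fragments (2877 higher in the 1st instar), and 4836 when 56 very abundant and mitochondrial genes were left out of the total (3149 higher in the 1st instar; this was chosen after the data were seen). With these scalings 60.6 to 66.7% of calls were higher in the embryo, and the median log2 fold change of all genes was 0.62 to 1.07. Medians of ratios gave 2758 and 4060. In all 5 scalings, 2751 genes were called higher in the embryo and 2738 in the 1st instar. Without 1 library, the counts were 2796 to 2969 higher in the embryo and 4023 to 4310 higher in the 1st instar, and without both libraries that stood apart most (embryo replicate 1 and 1st instar replicate 2) 3033 and 4070. The correlations of same-numbered deviations were -0.01, 0.01 and -0.03 for replicates 1, 2 and 3. No shared effect of the replicate number was thus seen, but these values cannot show whether the pools were paired. The replicate block gave 2846 and 3999 calls. Tubulin alpha (LOC114363268), at a log2 fold change of -0.80, was 0.45 with libraries scaled to recovered fragments, 0.45 by limma-voom and 0.063 without the most abundant genes. Of 139 genes named, 130 kept their direction and call with libraries scaled to recovered fragments, 139 with medians of ratios and 136 to 138 without 1 library. Of 88 counts over lists, 38 moved by over 1.5 times with that scaling, 0 with medians of ratios and 4 to 8 without 1 library. The depth of the whole fragments, not the FPKM, limits genes near 0, where a fold change was left out if a stage was listed at 0. Each stage has 3 pools of 20 animals, and near-identical gene copies may share reads.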

Other observations

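Genes higher in the embryo were also distributed unevenly over the larval tissues, which the comparison did not use. Hemolymph had the highest mean of the 4 tissues for 48.5% of the 2807 embryo-higher genes detected in any of them, for 9.81% of the 3954 genes higher in the 1st instar and for 26.3% of all 11449 tested genes detected there. With fragments per 1000000 in place of the deposited FPKM, these shares were 78.7%, 29.7% and 58.3%. Midgut was the highest tissue for 34.2% of genes higher in the 1st instar and 14.4% of genes higher in the embryo on the deposited values, and for 36.9% and 10.3% with fragments per 1000000, against 25.2% and 22.3% of all tested genes. Over the later stages, the 3rd instar was the highest of 4 for 47.8% of genes higher in the 1st instar, 6.39% of genes higher in the embryo and 25.6% of all tested genes on the deposited values, against 29.9%, 1.62% and 12.9% with fragments per 1000000. These shares are descriptions across genes, which are not independent, and no test was made.

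Some lists had few tested members or many that did not pass the filter. Of 31 tested genes of the sperm flagellum and axoneme, 5 were called higher in the embryo and 10 in the 1st instar, against 14 and 8 with libraries scaled to recovered fragments, and 96 of the 127 members did not pass the filter. Tanning and pigment genes had 1 and 6 of 15 (4 and 6 with that scaling). Prophenoloxidase and hemocyte genes had 2 and 5 of 10 (4 and 5), and storage proteins and lipid carriers 1 and 2 of 5 (2 and 2). Of all tested genes, 24.7% were called higher in the embryo and 34.6% in the 1st instar, against 48.1% and 24.0% with that scaling. When single libraries were left out, the embryo count was 1 or 2 for tanning genes and 0 to 2 for storage proteins.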
